A study of Homo sapiens with 24 samples.

Results

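The epithelial plasticity genes were followed by symbol in every table of this RNA sequencing series: the epithelial adhesion genes CDH1 and EPCAM, the mesenchymal genes CDH2 and VIM, the transcription factors SNAI1, SNAI2, ZEB1 and TWIST1, and the SOX factors SOX4 and SOX9. All 10 were found in both experiments, out of 23946 distinct genes in the series. All samples were LNCaP cells, an androgen-sensitive human line from a lymph node metastasis of prostate cancer, kept in medium with charcoal-stripped serum, which is poor in steroids, before treatment. In the ligand experiment the groups were vehicle, 10 nM dihydrotestosterone (DHT, the natural androgen receptor agonist) for 4 or 24 h, and 10 µM enzalutamide (labelled MDV, an androgen receptor antagonist used in the clinic) for 4 or 24 h, with 2 replicates a group. The labels give no time for the vehicle. In the siRNA experiment cells carried a control siRNA (siControl) or siRNA against the pioneer factor GATA2 (siGATA2), and 72 h after transfection were given vehicle or enzalutamide at 25 µM, in both cases for 24 h, with 3 replicates a group. Ligand levels are in CPM, counts scaled to library size, which do not correct for gene length, and siRNA levels in RPKM, read counts divided by library size and gene length, which do, so levels of different genes are set side by side in RPKM alone. A gene was called when its Benjamini-Hochberg adjusted p was below 0.05 over all genes tested, by edgeR's quasi-likelihood test for the ligand experiment and by limma for the siRNA experiment.

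Epithelial cells hold to each other through E-cadherin, encoded by CDH1, and the adhesion molecule EPCAM. In an epithelial to mesenchymal transition, factors of the SNAIL, ZEB and TWIST families repress CDH1 by binding E-boxes in DNA, while vimentin (VIM) and N-cadherin (CDH2) rise. SOX9 takes part in prostate development and marks basal and progenitor cells, and SOX4 is a related factor often raised in prostate tumours.

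The ligand libraries held between 38894876 and 59985287 estimated counts, and 15555 genes were tested. For the siRNA libraries, whose depth is not given, 20369 genes were tested. The labels were checked on known targets. KLK3, the gene of prostate-specific antigen, stood at 259 and 254 CPM in vehicle, at 2095 and 2139 CPM after 24 h of DHT and at 109 and 111 CPM after 24 h of enzalutamide. GATA2 lay between 46.6 and 64.7 RPKM in the 6 siGATA2 libraries and between 77.0 and 132 RPKM in the 6 siControl libraries. With both treatments pooled, 53.7% of its level was left (exact permutation test, two-sided, p = 0.00216, the smallest this design allows). In siControl cells enzalutamide itself raised GATA2, from a mean of 82.3 to 129 RPKM (limma adjusted p = 1.17e-05). With siGATA2 the means were 51.4 RPKM in vehicle and 62.1 RPKM under enzalutamide. On the log2 scale siGATA2 was thus lower by −0.68 in vehicle and by −1.06 under enzalutamide. The knockdown was therefore partial. All 8 markers of LNCaP and luminal prostate cells were present, and the basal markers TP63, KRT5 and KRT14 and the leukocyte markers PTPRC, CD3E and CD14 were below 1 CPM or RPKM in every library. The summed basal markers stood at 0.0330 and 0.127 CPM in vehicle and at 0.439 and 0.484 CPM after 24 h of DHT, where the 1 basal marker tested was called higher. The endothelial markers PECAM1 and CDH5 were also below 1, while VWF had means of 16.0 CPM in vehicle, 12.9 and 8.73 CPM after 4 and 24 h of enzalutamide and 21.0 CPM after 24 h of DHT, and was called in these 3 comparisons with vehicle. The part of these markers in the results was not tested. Column names number 3 sets of ligand libraries, without saying what a set is: both DHT 4 h libraries carry 1, both enzalutamide 4 h libraries 2, both enzalutamide 24 h libraries 3, and the DHT 24 h libraries 2 and 3, while vehicle replicate 1 has a column in each of the 3 sets and replicate 2 is in set 1. Only vehicle replicate 1 and the DHT 24 h group span sets, so set and treatment are partly confounded. Values with the set as a term are given where that term changed a call, and for some other differences. The fit with this term took the 4 vehicle columns as separate samples. It therefore counted the runs of vehicle replicate 1 as replicates, and its adjusted p-values may be too small. The paper calls the ligand replicates biological, but does not say that they came from separate cultures. Nothing says it of the siRNA replicates either. The p-values therefore measure the spread between these samples.

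Of the 10 genes, 4 (CDH2, SOX4, VIM and ZEB1) have an entry in the RefSeq promoter table. SOX4 and VIM are shown because both fell after 24 h of DHT and after GATA2 knockdown. Each sequence is the 250 bases before the annotated start in GRCh38.p14 on the plus strand, at chr6:21593501-21593750 for SOX4 and chr10:17227991-17228240 for VIM. Capitals would mark the E-box CACCTG, the GATA motif AGATAA or the androgen receptor half-site AGAACA on either strand.
SOX4: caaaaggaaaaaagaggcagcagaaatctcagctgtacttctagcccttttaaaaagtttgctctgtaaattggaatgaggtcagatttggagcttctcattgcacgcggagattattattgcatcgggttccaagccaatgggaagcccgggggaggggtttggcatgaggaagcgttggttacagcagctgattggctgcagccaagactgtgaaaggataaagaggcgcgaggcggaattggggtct
VIM: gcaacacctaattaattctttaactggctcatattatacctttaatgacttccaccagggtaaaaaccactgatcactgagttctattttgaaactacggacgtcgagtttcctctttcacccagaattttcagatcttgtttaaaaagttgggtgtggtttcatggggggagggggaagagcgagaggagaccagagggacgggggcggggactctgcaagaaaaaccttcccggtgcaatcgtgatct
No letter is in capitals, as none of the 3 motifs is in either window. Of all 35116 promoter windows of this length, 17.5% hold the E-box, 9.17% the GATA motif and 12.4% the half-site. Of the 7 start windows listed for ZEB1, 2 hold the E-box.

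DHT changed most of the transcription factors of the list, while CDH1 and EPCAM did not pass the test against vehicle under DHT. After 4 h of DHT, 3 of the 9 members tested were called, against 6.77% of all genes: SNAI2 and TWIST1 rose and SOX9 fell. After 24 h of DHT, 6 of 9 were called against 50.0% of all genes, with SNAI1, SNAI2 and TWIST1 higher and VIM, SOX4 and SOX9 lower than in vehicle. With library sizes in place of TMM factors, the share of the called genes that were higher after 24 h of DHT was 42.1% in place of 53.7%. Enzalutamide at 4 h changed 1 of 9, SOX4, against 13.6% of all genes. At 24 h it changed 3 of 9 (CDH1 and SOX9 higher, SOX4 lower) against 33.4%. CDH2 was too weak to be tested in this experiment.

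**Figure D1:**
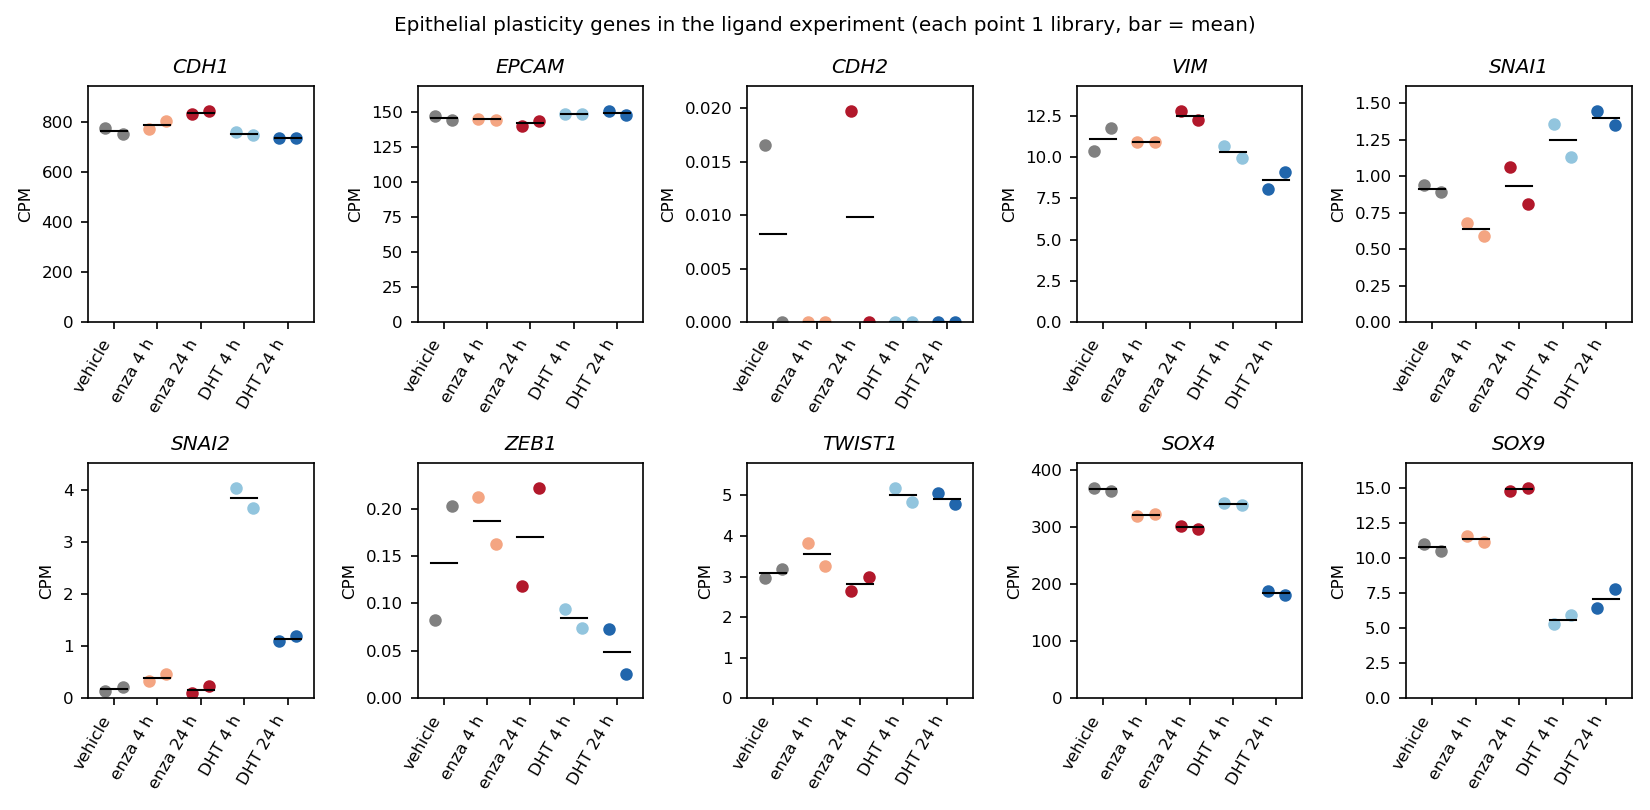
Levels of the 10 genes in the ligand experiment, in CPM on the vertical axis from 0, with 1 point a library and a bar at the mean of each of the 5 groups (n = 2). SNAI2 stands at 3.64 and 4.04 CPM after 4 h of DHT and at most at 0.466 CPM in the libraries without DHT, and SOX9 is lowest after 4 h of DHT and highest after 24 h of enzalutamide.

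Set against each other at the same time, DHT and enzalutamide differed for 4 of 9 members at 4 h (15.8% of all genes) and for 7 of 9 at 24 h (64.9% of all genes). Between 4 and 24 h, 4 of 9 members differed under enzalutamide (24.6% of all genes) and 4 of 9 under DHT (49.8% of all genes). In the siRNA experiment all 10 members were tested. Enzalutamide at 25 µM changed 4 of 10 in siControl cells, against 42.1% of all genes, and 1 of 10, SOX4, in siGATA2 cells, against 0.412%. Knockdown of GATA2 changed 6 of 10 in vehicle (55.6% of all genes) and 7 of 10 under enzalutamide (54.5% of all genes). The response to enzalutamide itself differed between siGATA2 and siControl cells for 2 of 10, SOX4 and SOX9, against 25.8% of all genes. Where a large part of all genes changed, as at 24 h of DHT and after knockdown, the members' share lies near that of all genes and says nothing particular about them. Comparisons with the same vehicle or siControl libraries share those samples.

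**Figure D2:**
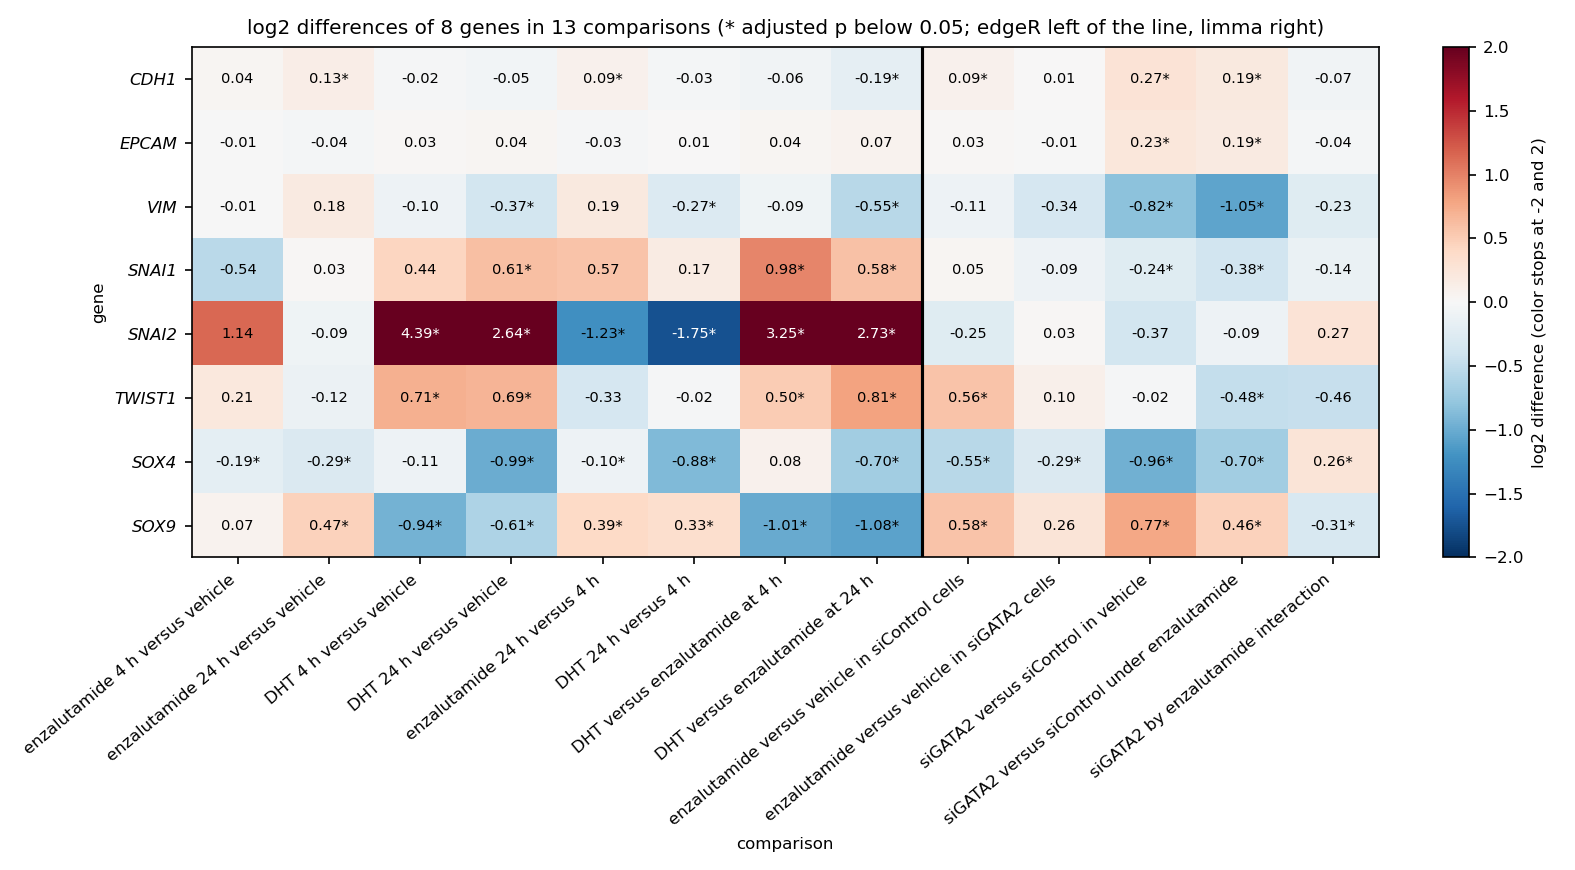
Grid of the fitted log2 differences of 8 members (rows, without CDH2 and ZEB1) in 13 comparisons (columns), each printed in its cell, with red for higher and blue for lower, colour stopping at −2 and 2, and an asterisk at an adjusted p below 0.05. SNAI2 with DHT lies past the colour limit, at 4.39 at 4 h and 2.64 at 24 h against vehicle, and the CDH1 and EPCAM rows are pale throughout.

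CDH1 was by far the highest of the genes per length, at 169 to 208 RPKM, above 99.3% of all genes. In the ligand experiment it stood at 774 and 752 CPM in vehicle, at 757 and 749 CPM after 4 h and 735 and 737 CPM after 24 h of DHT. After enzalutamide it stood at 770 and 803 CPM at 4 h and at 831 and 842 CPM at 24 h. Both 24 h enzalutamide libraries were above every other library, and both 24 h DHT libraries below. The rise under enzalutamide at 24 h was small, at 0.13 ± 0.0299 on the log2 scale (SE, edgeR adjusted p = 0.00418), and was no longer called without vehicle replicate 2 (adjusted p = 0.0627) or enzalutamide 24 h replicate 2 (adjusted p = 0.0695) in edgeR. DHT was lower than enzalutamide at 24 h, by −0.19 on the log2 scale (edgeR adjusted p = 0.000112). A difference of 0.09 between 24 and 4 h of enzalutamide (edgeR adjusted p = 0.0451) was lost on leaving out any of 9 of the 10 libraries, with adjusted p between 0.0604 and 0.258, and with the set as a term, at 0.08 (edgeR adjusted p = 0.22).

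In siControl cells CDH1 stood at 170, 171 and 169 RPKM in vehicle and at 178, 177 and 187 RPKM under 25 µM enzalutamide, with no overlap. That difference, 0.09 on the log2(RPKM + 0.1) scale (limma adjusted p = 0.0206), was lost when libraries were scaled to the same RPKM sum (adjusted p = 0.193) or quantile normalized (adjusted p = 0.736), and without siControl vehicle replicate 1 (0.0535) or 3 (0.0547) or siControl enzalutamide replicate 3 (0.0738). Knockdown of GATA2 raised CDH1 to 207, 201 and 207 RPKM in vehicle. It reached 206, 207 and 208 RPKM under enzalutamide. The 6 siGATA2 libraries were all above the 6 siControl libraries, by 0.27 ± 0.0263 in vehicle (limma adjusted p = 7.71e-06) and by 0.19 under enzalutamide (limma adjusted p = 8.82e-05).

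EPCAM, also an epithelial surface gene, was nearly flat in the ligand experiment, between 140 and 151 CPM in all 10 libraries, and was not called in any comparison there. In the siRNA experiment it lay at 51.2, 58.1 and 54.7 RPKM in siControl vehicle and at 55.4, 54.1 and 57.5 RPKM in siControl enzalutamide libraries. With siGATA2 it was 62.6, 63.4 and 65.5 RPKM in vehicle and 61.2, 63.3 and 65.5 RPKM under enzalutamide. As for CDH1, siGATA2 libraries did not overlap siControl libraries, and siGATA2 was higher by 0.23 (limma adjusted p = 0.0014) and 0.19 (limma adjusted p = 0.00478) on the log2 scale. N-cadherin, CDH2, gave at most 1 count in any ligand library and at most 0.00958 RPKM in any siRNA library. In the 2 libraries of each of 3 ligand groups (enzalutamide 4 h, DHT 4 h and DHT 24 h) it had no count, which at 3 counts over the group allows up to 0.0327, 0.0281 and 0.0319 CPM. No fold is given for it, and these limits cover counting error only.

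VIM, the intermediate filament gene, was well expressed in these epithelial cells, at 11.6 to 27.9 RPKM, above 85.3% of all genes. It stood at 10.4 and 11.8 CPM in vehicle, at 10.7 and 9.92 CPM after 4 h of DHT and at 8.07 and 9.10 CPM after 24 h of DHT, the lowest of the 5 groups. Under enzalutamide it was 10.9 and 10.9 CPM at 4 h and 12.8 and 12.2 CPM at 24 h, the highest of the groups. The fall at 24 h of DHT was −0.37 ± 0.0861 on the log2 scale (edgeR adjusted p = 0.00314). In edgeR it was not called without DHT 24 h replicate 1 (adjusted p = 0.0529) or with the set as a term (adjusted p = 0.0579). DHT and enzalutamide at 24 h differed by −0.55 (edgeR adjusted p = 7.24e-05). DHT at 24 h was lower than at 4 h by −0.27 (edgeR adjusted p = 0.0193), a call lost without DHT 24 h replicate 1 (0.183) or DHT 4 h replicate 1 (0.133). With the set as a term this difference was −0.06 and not called (edgeR adjusted p = 0.754). The summed level of 7 fibroblast or stromal markers, mostly COL1A1, moved the same way, from 26.3 and 26.4 CPM in vehicle to between 15.9 and 17.7 CPM after 24 h of DHT and 27.5 to 30.4 CPM after 24 h of enzalutamide, with DCN, COL1A2, COL3A1, PDGFRB and THY1 below 1 CPM in every group. Its part in the VIM result was not tested, and in these bulk samples fewer cells of a type and less RNA per cell cannot be told apart.

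Knockdown of GATA2 also lowered VIM. In siControl cells it was 27.9, 26.7 and 27.1 RPKM in vehicle and 26.3, 24.7 and 24.9 RPKM under enzalutamide. With siGATA2 it was 16.9, 16.4 and 13.1 RPKM in vehicle and 11.9, 12.9 and 11.6 RPKM under enzalutamide. All siGATA2 libraries were far below all siControl libraries, with falls of −0.82 ± 0.0823 in vehicle (limma adjusted p = 9.04e-06) and −1.05 ± 0.0823 under enzalutamide (limma adjusted p = 1.29e-06). Within siGATA2 cells enzalutamide libraries lay below vehicle libraries, by −0.34, without passing the test (limma adjusted p = 0.142). Leaving out siGATA2 vehicle replicate 3, the lowest of its group, gave −0.45 (limma adjusted p = 0.00684) and a difference of −0.35 between siGATA2 and siControl cells in the response (adjusted p = 0.00323, against −0.23 and 0.175 with all libraries). The antisense gene VIM-AS1, on the opposite strand, lay at 2.67 to 2.90 RPKM in siControl vehicle and at 1.29 to 1.56 RPKM in siGATA2 enzalutamide libraries. Whether counting used the strand is not stated, so reads of the pair cannot be told apart where they overlap. The stromal marker sum did not fall with VIM here, at 11.03 RPKM or more in siControl vehicle and 13.2 to 16.8 RPKM in siGATA2 vehicle libraries.

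**Figure D3:**
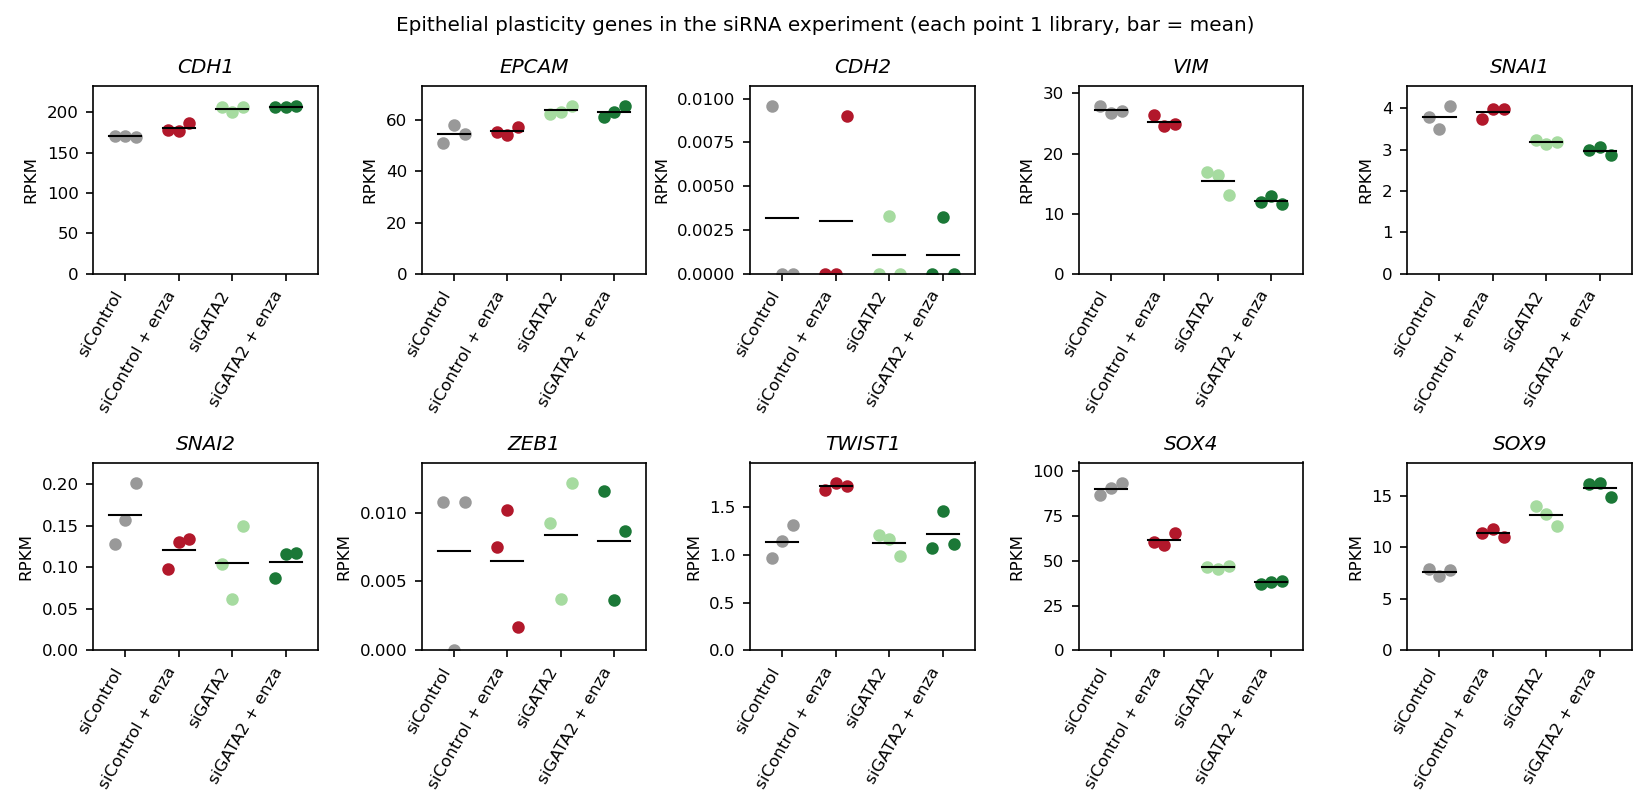
Levels of the 10 genes in the siRNA experiment, in RPKM on the vertical axis from 0, with 1 point a library and a bar at the mean of each of the 4 groups (n = 3). CDH1, EPCAM and SOX9 are higher and VIM, SNAI1 and SOX4 lower in siGATA2 than in siControl libraries without overlap, while SNAI2, ZEB1 and CDH2 are near 0. Of all genes, 55.6% were called with siGATA2 in vehicle and 54.5% under enzalutamide, and the share without overlap was not worked out.

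SNAI1, the founding repressor of CDH1, was weak, at 2.87 to 4.05 RPKM and 29 to 79 counts a ligand library. It stood at 0.941 and 0.889 CPM in vehicle and at 1.36 and 1.13 CPM after 4 h and 1.45 and 1.35 CPM after 24 h of DHT. After 4 h of enzalutamide it stood at 0.682 and 0.588 CPM, below vehicle, and after 24 h at 1.06 and 0.807 CPM, overlapping it. At 24 h of DHT the rise of 0.61 ± 0.203 was called (edgeR adjusted p = 0.0237). At 4 h the difference of 0.44 was not (edgeR adjusted p = 0.265), nor was that of −0.54 at 4 h of enzalutamide (edgeR adjusted p = 0.153). This enzalutamide difference was −0.195 with the set as a term (edgeR adjusted p = 0.848). With vehicle replicate 1 taken from its set 2 run it was −0.157 (edgeR adjusted p = 0.826). The DHT 24 h call was lost with DESeq2 (adjusted p = 0.159), with the set as a term (edgeR, 0.0845), and without vehicle replicate 1 (0.0751) or 2 (0.079) or DHT 24 h replicate 1 (0.118). It was also lost with vehicle replicate 1 taken from its run in set 1 (edgeR adjusted p = 0.0864) or set 3 (0.1485) alone. DHT was higher than enzalutamide by 0.98 at 4 h (edgeR adjusted p = 0.00835) and by 0.58 at 24 h (edgeR adjusted p = 0.0221). The first was lost without DHT 4 h replicate 1 (0.0824) or enzalutamide 4 h replicate 2 (0.0557), and the second without DHT 24 h replicate 1 (0.103) or enzalutamide 24 h replicate 2 (0.166). With the set as a term neither was called, at 0.53 for 4 h (edgeR adjusted p = 0.636) and 0.77 for 24 h (edgeR adjusted p = 0.058).

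In siControl cells SNAI1 was 3.79, 3.51 and 4.05 RPKM in vehicle and 3.73, 3.98 and 3.99 RPKM under enzalutamide, which overlap. With siGATA2 it was 3.23, 3.12 and 3.18 RPKM in vehicle and 2.98, 3.06 and 2.87 RPKM under enzalutamide. Every siGATA2 library was below every siControl library. The falls were −0.24 ± 0.0535 in vehicle (limma adjusted p = 0.00275, but 0.15 after quantile normalization) and −0.38 ± 0.0535 under enzalutamide (limma adjusted p = 0.000115).

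SNAI2, which encodes SLUG, a factor of the same family that is also expressed in basal and neural crest cells, gave the largest change of the list. It was barely detected in vehicle, at 0.149 and 0.228 CPM, or 9 counts in each library. After 4 h of DHT it stood at 4.04 and 3.64 CPM, or 214 and 196 counts, and after 24 h of DHT at 1.10 and 1.20 CPM, or 60 and 47 counts. Under enzalutamide it stood at 0.329 and 0.466 CPM at 4 h and at 0.0986 and 0.242 CPM at 24 h, from 5 to 23 counts. In order of level the groups were DHT 4 h, DHT 24 h, enzalutamide 4 h, vehicle and enzalutamide 24 h, and of neighbours in that order only vehicle and enzalutamide 24 h overlapped. The gene passed the low count filter without help from DHT, since 4 of the 6 libraries without DHT also reached its threshold of 0.201 CPM.

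The rise over vehicle was 20.9-fold at 4 h of DHT, or 4.39 ± 0.272 on the log2 scale (edgeR adjusted p = 1.65e-07). At 24 h it was 6.24-fold, or 2.64 ± 0.326 (edgeR adjusted p = 1.84e-05). Both rested on few vehicle counts. Summed over replicates, vehicle gave 0.180 CPM with a 95% Poisson interval of 0.107 to 0.285, against 3.84 CPM (3.47 to 4.23) at 4 h and 1.14 CPM (0.934 to 1.38) at 24 h of DHT. Within set 1, where the DHT 4 h and vehicle replicate 2 libraries and a run of vehicle replicate 1 fall, the difference was 4.41 (edgeR adjusted p = 9.59e-07). Leaving out each library in turn gave log2 differences from 4.06 to 4.67 for 4 h (edgeR adjusted p at most 3.11e-05) and from 2.31 to 2.92 for 24 h (at most 0.00108).

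The level after 24 h of DHT was below that after 4 h, by 3.35-fold, or −1.75 ± 0.198 on the log2 scale (edgeR adjusted p = 9.30e-06). With the set as a term the size was much the same, −1.77, but it was no longer called (edgeR adjusted p = 0.0951). Against enzalutamide at the same time, DHT was higher by 3.25 at 4 h (edgeR adjusted p = 6.12e-07) and 2.73 at 24 h (edgeR adjusted p = 7.75e-06). With the set as a term the 4 h difference was 3.23 (edgeR adjusted p = 0.0372). After 4 h of enzalutamide itself, both libraries were above both vehicle libraries, but the difference of 1.14 ± 0.40 did not pass (edgeR adjusted p = 0.0796). It passed with no filter on low counts (0.0342), with the 4 vehicle columns taken separately (0.0482) and without enzalutamide 4 h replicate 1 (0.0466). The enzalutamide 24 h level was lower than that at 4 h by −1.23 (edgeR adjusted p = 0.0412), a call lost without DHT 24 h replicate 1 (just above the threshold), either DHT 4 h replicate (0.0561 and 0.0554), enzalutamide 24 h replicate 1 (0.292) or enzalutamide 4 h replicate 2 (0.219). With the set as a term it was also not called, at −1.31 (edgeR adjusted p = 0.147). No enzalutamide library came near the DHT levels.

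Without added DHT, in the siRNA experiment, SNAI2 stayed at 0.0621 to 0.202 RPKM, above 34.8% of all genes by its mean, and the steps between its values correspond to 9 to 25 reads a library. It was 0.128, 0.157 and 0.202 RPKM in siControl vehicle and 0.0980, 0.130 and 0.133 RPKM in siControl enzalutamide libraries. With siGATA2 it was 0.104, 0.0621 and 0.150 RPKM in vehicle and 0.0864, 0.116 and 0.116 RPKM under enzalutamide. All neighbouring groups overlapped, and SNAI2 was not called in any of the 5 comparisons. The difference between siGATA2 and siControl in vehicle was −0.37 (limma adjusted p = 0.0707). It passed without siGATA2 vehicle replicate 3 (−0.52, limma adjusted p = 0.0128) or siControl vehicle replicate 1 (−0.46, adjusted p = 0.0449). With so few reads a difference within this spread was not detectable, and no siRNA library received DHT.

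ZEB1, the other E-box repressor, gave 1 to 11 counts a ligand library and at most 0.0122 RPKM in the siRNA libraries. Summed over replicates it gave 0.130 CPM in vehicle with a 95% Poisson interval of 0.0693 to 0.222, and 0.0532 CPM (0.0173 to 0.124) after 24 h of DHT. These intervals overlap, and ZEB1 was called in no comparison. The antisense gene ZEB1-AS1 was above it per length, at 2.17 to 4.63 RPKM. TWIST1, a basic helix-loop-helix factor, was steadier, at 0.968 to 1.76 RPKM. In CPM it stood at 2.96 and 3.20 in vehicle, 5.19 and 4.83 after 4 h and 5.05 and 4.79 after 24 h of DHT.

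All 4 DHT libraries were above all other libraries for TWIST1, with 3.83 and 3.26 CPM after 4 h and 2.64 and 2.98 CPM after 24 h of enzalutamide. The rises over vehicle were 0.71 ± 0.121 at 4 h (edgeR adjusted p = 0.00217) and 0.69 ± 0.123 at 24 h (edgeR adjusted p = 0.000446), or 1.63- and 1.61-fold. DHT was higher than enzalutamide by 0.50 at 4 h (edgeR adjusted p = 0.0123) and 0.81 at 24 h (edgeR adjusted p = 7.14e-05). The first was lost without DHT 4 h replicate 1 (0.0966) or enzalutamide 4 h replicate 2 (0.0915), and with the set as a term, at 0.69 (edgeR adjusted p = 0.102). In siControl cells TWIST1 was 0.968, 1.14 and 1.31 RPKM in vehicle and 1.68, 1.76 and 1.72 RPKM under 25 µM enzalutamide, a rise of 0.56 ± 0.13 (limma adjusted p = 0.00516). At 10 µM for the same 24 h the libraries overlapped vehicle. The doses and the transfection differ, so this contrast was not tested. In siGATA2 cells TWIST1 was 1.21, 1.16 and 0.989 RPKM in vehicle and 1.07, 1.46 and 1.11 RPKM under enzalutamide, which overlap. Under enzalutamide siGATA2 was lower by −0.48 (limma adjusted p = 0.00879), but the difference in response, −0.46, did not pass (limma adjusted p = 0.0925). It passed without siGATA2 enzalutamide replicate 2 (−0.59, limma adjusted p = 0.0251) or among genes with a mean of at least 1 RPKM (adjusted p = 0.0423).

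SOX4 was the only member called lower than vehicle under both DHT and enzalutamide. It stood at 368 and 363 CPM in vehicle, at 341 and 338 CPM after 4 h of DHT and at 187 and 181 CPM after 24 h of DHT. Under enzalutamide it stood at 319 and 323 CPM at 4 h and at 301 and 296 CPM at 24 h. The 5 groups did not overlap. DHT at 24 h took it to about a 1.98-fold lower level, −0.99 ± 0.032 (edgeR adjusted p = 6.97e-11), and the 24 h level was below that at 4 h by −0.88 (edgeR adjusted p = 4.58e-10). At 4 h of DHT the difference of −0.11 just missed (edgeR adjusted p = 0.0647), and it passed under 6 alternatives, among them with the set as a term (0.0479) and without enzalutamide 4 h replicate 1 (0.0364) or 2 (0.044). Enzalutamide lowered it by −0.19 ± 0.0314 at 4 h (edgeR adjusted p = 0.002) and by −0.29 ± 0.0314 at 24 h (edgeR adjusted p = 1.20e-05). DHT was below enzalutamide at 24 h by −0.70 (edgeR adjusted p = 4.74e-10). The small difference between 24 and 4 h of enzalutamide, −0.10 (edgeR adjusted p = 0.0299), was lost without either DHT 4 h replicate (0.0519 and 0.0521), either enzalutamide 24 h replicate (0.0855 and 0.17) or enzalutamide 4 h replicate 2 (0.069), and with the set as a term, at −0.07 (edgeR adjusted p = 0.31).

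Per length SOX4 lay at 37.3 to 93.7 RPKM, above EPCAM in siControl and below it in siGATA2 libraries. It was 86.6, 90.5 and 93.7 RPKM in siControl vehicle and 60.5, 58.8 and 65.6 RPKM in siControl enzalutamide libraries. With siGATA2 it was 46.5, 45.5 and 47.1 RPKM in vehicle and 37.3, 38.0 and 38.7 RPKM under enzalutamide. No group overlapped another. Enzalutamide at 25 µM lowered it by −0.55 ± 0.0411 in siControl cells (limma adjusted p = 3.07e-06) and by −0.29 ± 0.0411 in siGATA2 cells (limma adjusted p = 0.0179). Knockdown lowered it by −0.96 in vehicle (limma adjusted p = 1.50e-08) and by −0.70 under enzalutamide (limma adjusted p = 1.55e-07). The response to enzalutamide was smaller by 0.26 ± 0.0581 in siGATA2 cells (limma adjusted p = 0.00786). The call in siGATA2 cells was lost on leaving out any of their 6 libraries, with adjusted p from 0.0565 to 0.0986 and the log2 difference between −0.27 and −0.30.

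SOX9 fell under the agonist and rose under the antagonist. It stood at 11.03 and 10.5 CPM in vehicle, at 5.28 and 5.93 CPM after 4 h of DHT and at 6.44 and 7.80 CPM after 24 h of DHT. Under enzalutamide it stood at 11.5 and 11.1 CPM at 4 h and at 14.8 and 15.0 CPM at 24 h. In order of level the groups were enzalutamide 24 h, enzalutamide 4 h, vehicle, DHT 24 h and DHT 4 h, and no neighbours overlapped, although enzalutamide 4 h and vehicle differed by only 0.07 (edgeR adjusted p = 0.66). The fall at 4 h of DHT was 1.92-fold, −0.94 ± 0.0943 (edgeR adjusted p = 1.83e-05), and that at 24 h 1.53-fold, −0.61 ± 0.0933 (edgeR adjusted p = 0.000117). The rise at 24 h of enzalutamide was 1.38-fold, 0.47 ± 0.0852 (edgeR adjusted p = 0.000987), and with the set as a term 0.35 (edgeR adjusted p = 0.0213). Within set 1 the fall at 4 h of DHT was −0.94 (edgeR adjusted p = 4.16e-05). All 3 calls remained on leaving out any 1 library.

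DHT was below enzalutamide for SOX9 by −1.01 at 4 h (edgeR adjusted p = 6.28e-06) and by −1.08 at 24 h (edgeR adjusted p = 2.29e-07). From 4 to 24 h SOX9 was higher under enzalutamide, by 0.39 (edgeR adjusted p = 0.00457), but with the set as a term this was not called (0.265). Under DHT it was higher at 24 h than at 4 h by 0.33 (edgeR adjusted p = 0.014), a call lost with the set as a term (0.112) and without DHT 24 h replicate 2 (0.162) or DHT 4 h replicate 1 (0.126). SNAI2 and SOX9 thus both lay farther from vehicle at 4 h than at 24 h of DHT, in opposite directions, in the fit without the set. SOX4 lay farther at 24 h.

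In the siRNA experiment SOX9 was lowest in siControl vehicle and highest with both knockdown and enzalutamide. It was 7.88, 7.23 and 7.77 RPKM in siControl vehicle and 11.4, 11.8 and 11.05 RPKM in siControl enzalutamide libraries. With siGATA2 it was 14.0, 13.3 and 12.1 RPKM in vehicle and 16.1, 16.3 and 14.9 RPKM under enzalutamide. No group overlapped another. Enzalutamide raised it 1.49-fold in siControl cells, 0.58 ± 0.0571 (limma adjusted p = 2.09e-05), beside the 1.38-fold at 10 µM, where dose and culture differ. Knockdown raised it by 0.77 ± 0.0571 in vehicle (limma adjusted p = 8.46e-07) and by 0.46 ± 0.0571 under enzalutamide (limma adjusted p = 4.77e-05). In siGATA2 cells enzalutamide libraries were above vehicle libraries by 0.26, without passing (limma adjusted p = 0.0995, or 0.0408 among genes with a mean of at least 1 RPKM). The difference in response between siGATA2 and siControl cells was −0.31 ± 0.0808 (limma adjusted p = 0.0168).

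The wider pathway was described with 7 lists, written with earlier results of these data known. Their counts stand beside 50.0% of all genes called after 24 h of DHT and 55.6% with siGATA2 in vehicle. Of 24 epithelial junction and keratin genes, 9 rose and 8 fell after 24 h of DHT, with a median log2 difference of 0.01 beside 0.00 for all genes. KRT18, a luminal keratin, was higher by 0.49 and the desmosomal cadherin DSG2 by 0.47, and the tight junction genes OCLN and TJP3 were lower by −0.51 and −0.50. With siGATA2 in vehicle, 14 rose and 5 fell, with a median of 0.15 beside −0.03 for all genes. TJP3 rose by 0.95 and KRT8 by 0.84, while the desmosomal plakophilin gene PKP2 fell by 0.73. Of 21 epithelial regulators, 7 rose and 5 fell after 24 h of DHT and 10 rose and 6 fell with siGATA2. After 4 h of DHT, KLF5 rose by 1.44 and GRHL2, a factor that upholds the epithelial state, by 0.94, from 101 to 193 CPM. With siGATA2, ELF3, an epithelial ETS factor, rose by 1.25 and SPINT1, a protease inhibitor gene, by 1.06. ESRP1, a splicing factor of epithelial cells, rose by 0.83 with 25 µM enzalutamide and by 0.64 after 24 h at 10 µM.

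Of 15 mesenchymal genes tested in the ligand experiment, 1 rose and 7 fell after 24 h of DHT, where 50.0% of all genes were called, with a median of −0.37 beside 0.00 for all genes. COL1A1 fell by 0.65 and fibronectin (FN1) by 0.51, and FBN1, encoding fibrillin, was higher by 1.04 at 4 h. In siGATA2 cells in vehicle, with 55.6% of all genes called, 6 of 24 rose and 9 fell. FN1 fell by 2.76, from 247 to 36.4 RPKM, and the smooth muscle actin gene ACTA2 by 1.00, whereas COL5A1 rose by 1.25 and TAGLN by 0.99. Among other transcription factors of the transition, 0 of 8 rose and 4 fell after 24 h of DHT (median −0.42), with LEF1 lower by −0.66 and TCF4 by −0.47. With siGATA2, 2 of 9 rose and 5 fell (median −0.41), TCF3 by 0.50 among the latter. The factors SNAI1, SNAI2 and TWIST1, which rose with DHT, are not in that list. Among other SOX genes, 1 of 6 fell after 24 h of DHT and none rose, and 3 of 12 rose and 2 fell with siGATA2, SOX13 by 0.40 upward and SOX8 by 0.58 downward. Of 10 TGF-beta pathway genes tested, 1 rose and 4 fell after 24 h of DHT, among them SMAD3 at −0.54 and SKIL, a repressor of SMAD signalling, at −0.49. With siGATA2, 5 of 12 rose and 2 fell, SKI by 0.55 upward and TGFBR3 by 0.93 downward. Of 5 basal and progenitor genes tested, 2 rose and 2 fell after 24 h of DHT, with the integrin gene ITGB4 at −0.98 and P-cadherin (CDH3) at −0.74, and with siGATA2 4 of 10 rose and 2 fell, CDH3 at 0.64 and ITGA6 at −1.18. All genes named from the lists were called, by edgeR in the ligand and by limma in the siRNA experiment.

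Of the other comparisons with vehicle, 6.77% of all genes were called after 4 h of DHT, 13.6% and 33.4% after 4 and 24 h of enzalutamide at 10 µM, and 42.1% at 25 µM in siControl cells. After 4 h of DHT, 2 of the 24 junction genes rose and 1 fell, 3 of the 21 epithelial regulators rose and 1 fell, 1 of 15 mesenchymal genes and 1 of 10 TGF-beta genes rose, and none of the other factors, SOX genes or basal genes passed. With 4 h of 10 µM enzalutamide, 5 junction genes fell and none rose, 1 regulator rose and 2 fell, 1 mesenchymal gene and 1 TGF-beta gene rose, 2 SOX genes fell, and none of the other factors or basal genes passed. After 24 h of 10 µM enzalutamide, 2 junction genes rose and 6 fell, 4 regulators rose and 5 fell, and 1 mesenchymal gene rose and 3 fell. With 25 µM enzalutamide in siControl cells, 8 junction genes rose and 5 fell, 7 regulators rose and 5 fell, 3 of 24 mesenchymal genes rose and 7 fell, and 5 of 12 TGF-beta genes rose and none fell, SKIL by 0.30 and TGIF1 by 0.27 among them. KRT19, a keratin of simple epithelia, fell by 0.95 and CLDN7, a tight junction claudin, rose by 0.59 in that comparison.

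**Figure D4:**
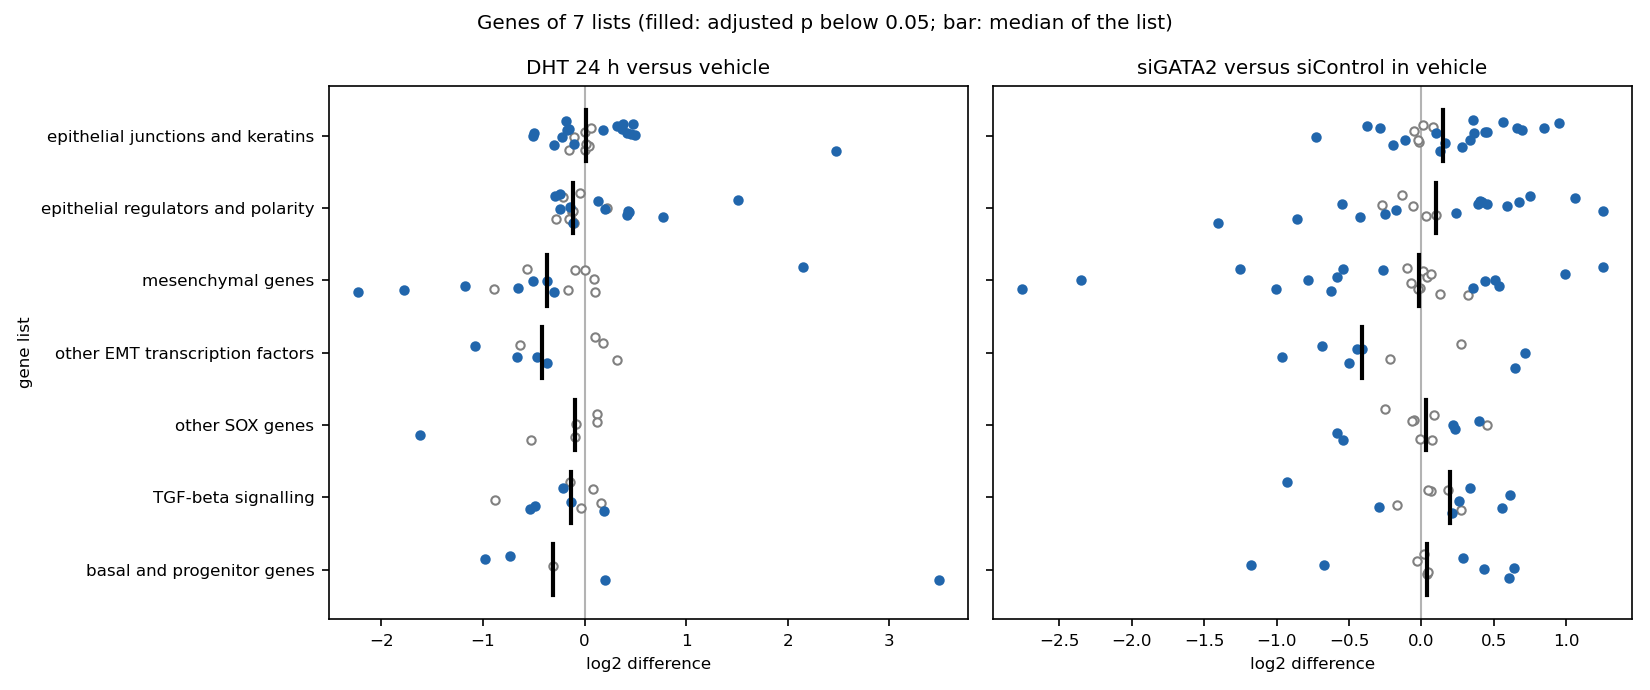
Log2 differences (horizontal axis) of the genes of 7 lists (vertical axis) for DHT 24 h against vehicle, left, and siGATA2 against siControl in vehicle, right, with 1 point a gene, filled at an adjusted p below 0.05, and a bar at the median of each list. The mesenchymal list and the list of other transcription factors lie below 0 after 24 h of DHT, at medians of −0.37 and −0.42.

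Genes whose pattern was most like that of SNAI2 and SOX9 were looked for among 11384 genes tested in both experiments, by the lower of the Pearson correlations over the 5 ligand group means and the 4 siRNA group means on the log2 scale. For SNAI2 these were UBE2Q1 (0.960 and 0.964), DDAH1 (0.949 and 0.950) and DUSP11 (0.986 and 0.949). None of the 3 was called in any ligand comparison, and their differences at 4 h of DHT were 0.04, 0.11 and 0.18, so the likeness is in shape and not in size. For SOX9 they were CATSPER2P1 (0.975 and 0.989), BAD (0.951 and 0.978) and ABCA2 (0.950 and 0.970), and none of them was called against vehicle in the ligand experiment. With so few group means, high correlations are common, and they are given as a description. SNAI2 itself, at a mean of 0.124 RPKM, had 9 to 25 reads a siRNA library and was not called there. Likeness to it in the siRNA experiment thus rests on differences that did not pass.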

How the data were processed

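RNA sequencing of LNCaP cells was analysed from the deposited tables. Per the submitters' processing notes, reads were aligned with TopHat2 2.0 to hg19 and quantified in Partek. For the ligand experiment the authors deposited estimated counts per gene, not normalized and 56.0% to 62.6% whole, which were rounded here. For the siRNA experiment the authors deposited RPKM values, so no count test was run, and steps between low values gave the whole reads of weak members (tolerance 0.05). RNA was polyA selected with a directional kit. The series lists 4 vehicle samples. Of 4 vehicle columns, 3 carry number 1 and differed from each other by a chi-square per gene of 1.53 to 1.56 (1 is sampling noise), against 3.56 to 3.74 from number 2 and 2.03 to 9.82 between replicates of the other groups. By this shared number they were summed as runs of 1 sample, which leaves n = 2.

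Counts were tested with edgeR 4.0.16 (R 4.3.3; TMM, filterByExpr, 1 model of 5 groups) and log2(RPKM + 0.1) with limma 3.58.1 (variance trend, genes above 0 in at least 3 libraries, 1 model of 4 groups), on all genes, and the steps were tested on simulated data. For edgeR, the SE given is the size of the log2 difference divided by the square root of its F statistic. The pseudocount understates changes of weak genes. Alternatives were DESeq2 1.42.0, other scalings, filters, pseudocounts and call rules, a replicate block, and leaving out each library. The members, lists and rules were chosen with earlier results of these data known. Named list genes are the 2 largest rises and falls that were called, do not overlap and reach a mean log2 CPM or RPKM of 1. Promoters came from RefSeq (GRCh38.p14), whereas the counts use hg19. No column of values was left unused.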

Additional observations from a re-analysis of the deposited data

Results flagged for a closer look

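In 10 cases a direct test found a member's level to differ between times of a ligand, or its response to differ between siRNAs. The labels give no time for the vehicle, so between times, time under ligand and time in culture cannot be told apart. For DHT at 24 h against 4 h (edgeR) the log2 differences were −1.746 for SNAI2, −0.8818 for SOX4, 0.3324 for SOX9 and −0.2685 for VIM. SNAI2 and SOX9 were closer to vehicle at 24 h, and SOX4 and VIM farther below it. For enzalutamide at 24 h against 4 h (edgeR) they were 0.08925 for CDH1, −1.233 for SNAI2, −0.1029 for SOX4 and 0.3948 for SOX9. For the response to 25 µM enzalutamide in siGATA2 against siControl cells (limma) they were 0.2638 for SOX4 and −0.3131 for SOX9, so the fall of SOX4 and the difference of SOX9 were both smaller in siGATA2 cells. The sets named in the columns differ between the 4 and 24 h libraries, and SOX4 under DHT alone of the 8 differences between times was still called with the set as a term. The ligand groups have 2 libraries and the siRNA groups 3, so no library was tested as standing apart within its group.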

How the results depend on the processing

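Of 1070 alternative values for 52 called differences of members, 991 kept their call and direction and 79 kept the direction but lost the call. None reversed. The cause of a lost call was not tested.

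The number of members called changed with the call rule and with other settings. No share of all genes is set beside the counts below, so they show how calls moved and are not a result about the members. With a fold above 2 and an unadjusted p below 0.05 there were 0 for enzalutamide at 24 h, 1 for DHT at 4 h, 1 for DHT at 24 h, 1 for enzalutamide 24 h against 4 h, 1 for DHT 24 h against 4 h, 2 for DHT against enzalutamide at 4 h and 3 at 24 h. Under that rule the member called for enzalutamide at 4 h was SNAI2 (2.21-fold, edgeR unadjusted p = 0.0137) and not SOX4. In the siRNA experiment that rule gave 0 for enzalutamide in siControl and 0 in siGATA2 cells, 0 for siGATA2 in vehicle, 1 under enzalutamide and 0 for the difference in response. For enzalutamide at 4 h, 2 were called with no filter on low counts and 2 with the 4 vehicle columns taken separately. For enzalutamide 24 h against 4 h, DESeq2 called 2 and a fit of only the groups compared 1. With the set as a term, an alternative chosen after seeing the data, 0 were called there, 1 for DHT 24 h against 4 h and 2 for DHT against enzalutamide at 4 h. Among genes with a mean of at least 1 RPKM, 2 were called for enzalutamide in siGATA2 cells.

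Leaving out each library in turn gave 1 to 2 members called for enzalutamide at 4 h and 2 to 3 at 24 h. For DHT it gave 3 to 4 at 4 h and 4 to 6 at 24 h. For 24 h against 4 h it gave 1 to 3 under enzalutamide and 2 to 4 under DHT. For DHT against enzalutamide it gave 2 to 4 at 4 h and 6 to 9 at 24 h. For enzalutamide it gave 3 to 4 in siControl and 0 to 1 in siGATA2 cells. For siGATA2 it gave 6 to 7 in vehicle and 7 each time under enzalutamide, and 2 to 3 for the difference in response.

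Same-numbered replicates did not deviate together (correlations −0.10 to 0.06 in the ligand and −0.07 to 0.06 in the siRNA experiment), so the numbers do not pair them. With a replicate block, 2 members were called for enzalutamide 24 h against 4 h, and SNAI2 with siGATA2 in vehicle passed (limma adjusted p = 0.0365).

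Depth limits SNAI2 without DHT, ZEB1 and CDH2, which rest on a few counts a library.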
